A study of Homo sapiens with 102 samples.

Results

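The 10 chaperone and heat shock genes HSP90AA1, HSP90AB1, HSPA8, HSPA1A, HSPA5, HSPA9, HSPD1, HSPE1, HSPB1 and DNAJA1 were followed through a Combi-Seq drug screen of K562 cells. They were the rows of the count table whose Ensembl identifier mapped to these symbols, 10 of 24965 genes. In Combi-Seq, single cells are enclosed in droplets together with 2 drugs, and each drug travels with its own barcode fragment, so that the joined barcode primes reverse transcription and later tells which drug pair a transcript came from. K562 is a cell line established from chronic myeloid leukaemia, with the BCR-ABL fusion kinase. Each library was a pool of cells that shared one ordered drug pair.

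All libraries came from K562 cells after 12 h in droplets. Both drugs of a pair were chosen from DMSO (the solvent control), imatinib (a BCR-ABL kinase inhibitor), trametinib (a MEK inhibitor) and YM115, the spelling of the labels for a compound that the study calls YM155, which lowers survivin expression. The dT screen thus held 16 ordered pairs and the Bio screen the same 16. In the Bio screen the barcoding scheme was changed. Each pair had 3 runs per screen, and each screen had 3 further separate DMSO controls. The labels leave unsettled which drug entered by which injection line, so the terms first-listed and second-listed follow the order of names. The labels only number the runs, which the study describes as biologically independent replicates.

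Total counts ranged from 127042 to 759756 in the 48 dT libraries and from 81806 to 780143 in the 44 Bio libraries that passed a filter on detected genes and mitochondrial counts. The 3 Bio libraries with imatinib in both positions and 1 of Bio DMSO_Trametinib did not pass. The separate controls had 256671 to 458945 counts in dT and 35742 to 89347 in Bio. All 12 K562 markers on a list of globins and erythroid regulators were counted in both screens, with summed levels of 13122 to 85705 CPM (counts scaled to a common library total) in dT and 9117 to 55862 CPM in Bio. Most of this was the fetal globin HBG2. Of 10 markers of other cells, 4 had counts in dT and 6 in Bio, and their summed level had a median of 0 CPM in both screens (0 to 666 and 0 to 1977 CPM). CD3D held 1072 of these counts in dT and 692 in Bio, in 12 of 48 dT and 5 of 44 Bio libraries.

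Chaperones bind proteins that are not yet folded or have lost their fold, and HSP70 and HSP90 proteins do so in cycles of ATP binding and hydrolysis that J-domain proteins and other partners control. HSP90AA1, HSP90AB1, HSPA8, HSPA1A and DNAJA1 act in the cytosol, HSPA5 (BiP) in the endoplasmic reticulum, and HSPA9 (mortalin), HSPD1 (HSP60) and HSPE1 (HSP10) in mitochondria. HSPB1 (HSP27) is a small heat shock protein that holds unfolded proteins without ATP. Many of these genes are induced by heat shock factor at heat shock elements, HSPA5 also through the ER stress element, and BCR-ABL is a known client of HSP90.

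The promoter windows of the genes on which the results turn are shown with their matches to known elements. Each window runs from 250 bases before to 50 bases after a RefSeq transcript start on GRCh38.p14, is written 5′ to 3′ on the strand of the gene, and has heat shock elements (GAANNTTC or TTCNNGAA) or the ER stress element (CCAAT, then CCACG after 9 further bases) in capitals.
HSPE1 chr2:197500129-197500428 (+): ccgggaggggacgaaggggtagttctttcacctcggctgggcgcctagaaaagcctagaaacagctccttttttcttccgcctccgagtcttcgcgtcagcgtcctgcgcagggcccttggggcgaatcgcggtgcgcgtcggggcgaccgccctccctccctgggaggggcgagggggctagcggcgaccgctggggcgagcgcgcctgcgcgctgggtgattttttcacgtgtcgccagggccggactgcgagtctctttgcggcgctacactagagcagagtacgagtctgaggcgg
HSPD1 chr2:197499791-197500090 (-): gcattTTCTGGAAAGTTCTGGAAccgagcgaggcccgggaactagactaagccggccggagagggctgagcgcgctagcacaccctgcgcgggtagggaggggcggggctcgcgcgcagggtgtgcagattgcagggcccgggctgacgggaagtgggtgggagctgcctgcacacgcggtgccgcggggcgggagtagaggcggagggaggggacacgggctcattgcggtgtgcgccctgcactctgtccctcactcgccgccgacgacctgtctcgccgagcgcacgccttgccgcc
HSPB1 chr7:76302423-76302722 (+): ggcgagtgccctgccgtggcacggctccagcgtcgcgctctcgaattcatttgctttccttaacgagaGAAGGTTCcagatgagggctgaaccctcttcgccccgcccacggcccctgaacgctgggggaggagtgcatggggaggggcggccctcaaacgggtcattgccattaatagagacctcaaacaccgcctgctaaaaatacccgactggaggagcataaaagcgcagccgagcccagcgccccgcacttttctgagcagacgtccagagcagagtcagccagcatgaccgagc
HSPA1A chr6:31815293-31815592 (+): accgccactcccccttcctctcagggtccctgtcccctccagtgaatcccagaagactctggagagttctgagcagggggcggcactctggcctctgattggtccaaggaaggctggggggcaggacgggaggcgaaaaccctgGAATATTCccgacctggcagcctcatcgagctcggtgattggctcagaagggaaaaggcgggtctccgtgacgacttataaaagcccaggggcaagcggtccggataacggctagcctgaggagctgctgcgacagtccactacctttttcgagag
HSPA5 chr9:125241294-125241593 (-): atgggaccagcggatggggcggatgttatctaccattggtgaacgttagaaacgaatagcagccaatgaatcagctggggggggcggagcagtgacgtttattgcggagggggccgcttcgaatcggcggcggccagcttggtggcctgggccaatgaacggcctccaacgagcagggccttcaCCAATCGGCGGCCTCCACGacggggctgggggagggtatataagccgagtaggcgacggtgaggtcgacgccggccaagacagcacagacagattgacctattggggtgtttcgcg
All 10 genes matched the RefSeq table. On either strand, GAANNTTC occurred in 6.77% and TTCNNGAA in 7.74% of 35116 promoter windows, and the ER stress element in 0.0769%. The printed windows of HSPD1, HSPB1 and HSPA1A held a heat shock element, and the window of HSPA5 held the ER stress element 66 bases before the start. The HSPE1 window held neither. A second HSPD1 window, from another transcript start (197500225 to 197500524), also held neither. The elements of the printed HSPD1 window, at its bases 6 to 23, lay outside the HSPE1 window but within the GENCODE span of HSPE1. Overlapping matches of the 2 heat shock forms, as in HSPD1, were counted for each form. HSPE1 and HSPD1 are neighbours on chromosome 2 that are transcribed in opposite directions, and in GENCODE release 29 the HSPE1 gene (197499994 to 197503457, plus strand) lies within the span of HSPD1 (197486581 to 197516737, minus strand). These matches describe letters only.

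The 10 genes together took a small and variable share of the transcriptome. Their summed share was 0.324% to 1.16% of counts in dT (median 0.748%, n = 48) and 0.104% to 2.11% in Bio (median 1.14%, n = 44). In the separate controls it was 0.378% to 0.698% in dT and 0.447% to 0.674% in Bio. The ranges of all 4 sets overlapped. In pools of cells, fewer cells with a transcript and less of it per cell cannot be told apart.

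HSPE1, the lid of the mitochondrial HSP60 chamber, was the most abundant member in the pooled in-screen libraries of both screens. In the separate controls other members had more counts, namely HSPA5 in dT (1262 against 985 for HSPE1) and HSP90AB1, HSP90AA1, HSPA5 and HSPB1 in Bio (228, 224, 201 and 128 against 48). In the screens, the HSPE1 level was 7.87 CPM at the lowest, 2001 CPM in the median and 4241 CPM at the highest in dT, and 0, 2868 and 8880 CPM in Bio. It was counted in 48 of 48 dT and 43 of 44 Bio libraries. HSPD1, which forms the chamber that HSPE1 closes, was almost never counted. It had 52 counts in 7 of 48 dT libraries, and 0 counts in 44 Bio libraries, which allows up to 0.265 CPM over the whole screen. Such limits cover counting error only, since no collapsing of molecular identifiers was described. HSPE1 thus had 714 times the counts of HSPD1 in dT. In the separate controls HSPD1 was counted in 3 of 3 libraries of both kinds, with 1, 1 and 11 counts in dT and 3, 1 and 1 in Bio. There the counts of HSPE1 were 75.8 times and 9.6 times those of HSPD1. The 2 genes overlap and the strand setting of the counting is not known, so reads of their shared stretch cannot be told apart.

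The cytosolic HSP90 genes were counted in nearly every library. HSP90AB1, the constitutive form, had 219 CPM at the lowest, 1862 CPM in the median and 3950 CPM at the highest in dT, and 3.16, 2425 and 7722 CPM in Bio. HSP90AA1, the inducible form, had 0, 1386 and 4192 CPM in dT and 0, 1727 and 6602 CPM in Bio, and was missing in 1 of 48 and 3 of 44 libraries. HSPB1 had 42, 482 and 2697 CPM in dT and 38.6, 1673 and 6605 CPM in Bio, with counts in every library. These 3 genes and HSPE1 made up most of the member counts in both screens.

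The HSP70 genes were sparser. HSPA5 was counted in 48 of 48 dT libraries (6.45, 511 and 3463 CPM) and in 32 of 44 Bio libraries (0, 157 and 5102 CPM). HSPA8, the constitutive cytosolic HSP70, was counted in 44 of 48 dT libraries (0, 284 and 1485 CPM) and in 29 of 44 Bio libraries (0, 30.7 and 3224 CPM). HSPA9 had counts in 20 of 48 and 9 of 44 libraries, the stress-inducible HSPA1A in 16 of 48 and 27 of 44, and the J protein DNAJA1 in 10 of 48 and 5 of 44. Where these 3 genes were seen they could be high, up to 485 CPM for HSPA9, 306 CPM for HSPA1A and 717 CPM for DNAJA1 in dT. With every library thinned to 35000 counts, HSPA1A was seen in 10.4% of dT and 36.4% of Bio libraries.

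**Figure D1:**
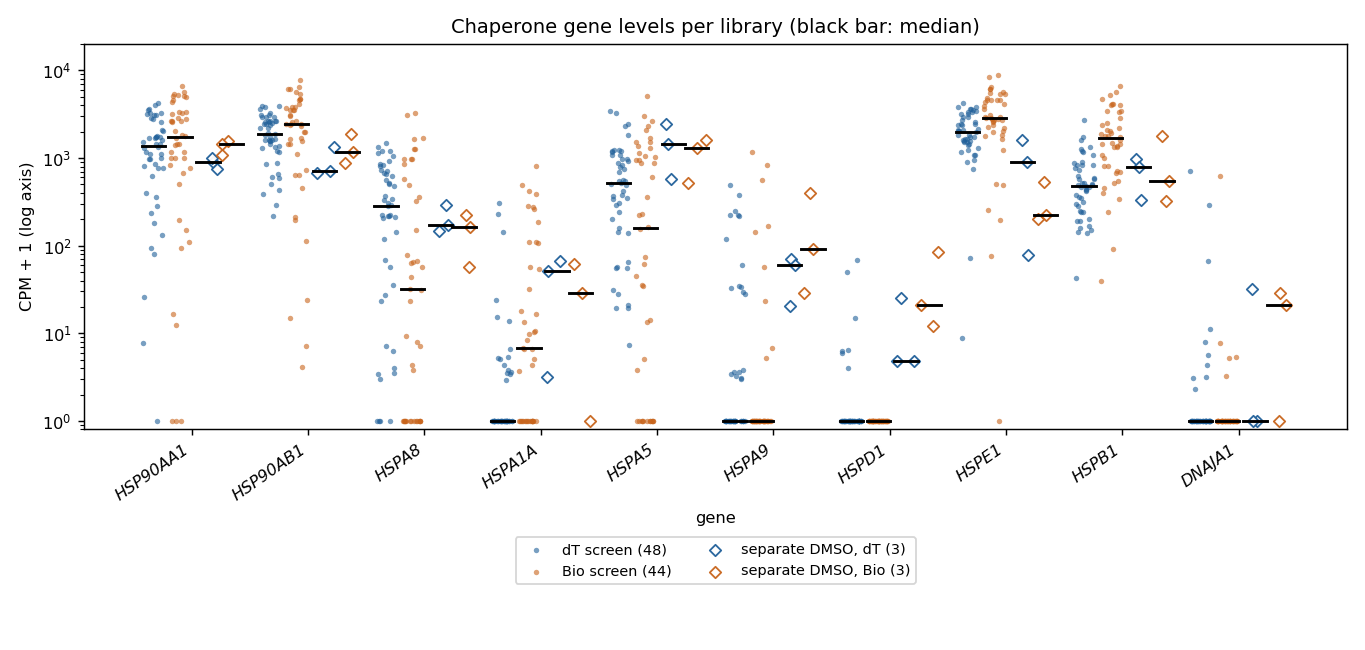
Level of each of the 10 genes in every library that passed (CPM + 1, log axis), for the dT screen (48 libraries), the Bio screen (44) and the separate DMSO controls of each (3), with the median as a black bar. HSPE1, the HSP90 genes and HSPB1 form the high group, while HSPA1A, HSPA9, HSPD1 and DNAJA1 sit at 0 counts in most dT libraries.

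Per kilobase of exon (GENCODE release 29), the pooled dT level was 1141 CPM for HSPE1, 681 for HSP90AB1, 362 for HSPB1, 319 for HSP90AA1, 156 for HSPA5 and 82.6 for HSPA8. The remaining genes lay between 0.744 (HSPD1) and 7.88 CPM per kilobase (DNAJA1). In Bio, HSPB1 stood second, with 1499 CPM per kilobase after 1809 for HSPE1 and before 964 for HSP90AB1. Libraries of a screen varied by a coefficient of variation of 47.3% (HSPE1) to 81.2% (HSPB1) for the 4 abundant genes in dT, and neighbours in this order such as HSPB1 and HSP90AA1 did not differ beyond that spread. Reverse transcription was primed at poly-A tails, so levels per kilobase assume a read coverage that was not tested.

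Members differed in how they varied from library to library. Of the pairs of members in dT, HSPA5 and HSPE1 had the most negative correlation (Pearson r = -0.478, Spearman rho = -0.428) and HSPA5 and HSPB1 a positive one (r = 0.384, rho = 0.358), both over 48 libraries after centring on runs. By rank, HSPA1A and HSPE1 had the highest correlation of any member pair in dT (rho = 0.5845, r = 0.287). HSPA1A had counts in only 16 of 48 dT libraries. In Bio, HSPA1A and HSPE1 gave rho = 0.400 and r = 0.288, and HSP90AA1 and HSPB1 gave r = 0.370, over 44 libraries. Depth moved with several of them. HSPE1 correlated with log2 total counts in dT (r = 0.589) and in Bio (r = 0.426), where HSPA1A (r = 0.486), HSPB1 (r = 0.476) and HSP90AA1 (r = 0.476) did too. These are descriptions of libraries that share runs and depths.

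To ask whether single drugs changed these genes, each screen was fitted with 1 term per drug, present in either position, and with run as a block. HSPE1 with YM115 in dT was the only member past the threshold. Its level without YM115 was 7.87 CPM at the lowest, 1648 CPM in the median and 3833 CPM at the highest (n = 27), and with YM115 it was 894, 2680 and 4241 CPM (n = 21). The groups overlapped widely, but the mean with YM115 was higher in each run, at 2285 against 1610 CPM, 2624 against 1627 CPM and 3094 against 1833 CPM. The log2 difference was 1.04 (SE 0.30, adjusted p = 0.0433, quasi-likelihood test of edgeR, Benjamini-Hochberg adjustment over 3930 genes). Of all genes tested 2.62% were called for YM115, and 1.53% were called higher. Of the members, 7 were tested in dT and 3 (HSPA1A, HSPD1 and DNAJA1) did not reach the count minimum.

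The HSPE1 call lay close to the threshold, and most settings ended it while the difference stayed positive. With DESeq2 size factors the log2 difference was 0.88 (adjusted p = 0.0924), with no low-count filter 1.11 (0.0648), with genes counted in at least 50% of libraries 0.99 (0.167), and with no replicate block 1.06 (0.0647). Libraries with YM115 were deeper, with a median of 390691 counts against 316995. With log2 total count as a covariate the log2 difference was 0.84 (SE 0.32) and the adjusted p was 0.116. It was 1.19 without run 2 (adjusted p = 0.268), 0.97 without run 3 (0.334) and 1.40 with single-drug conditions only (0.538). The 2 lowest libraries were both without YM115, DMSO_DMSO run 1 at 72.1 CPM and DMSO_Imatinib run 1 at 7.87 CPM. Without run 1, which holds both, the log2 difference was 0.92 (SE 0.21, adjusted p = 0.0233). The DESeq2 test on all runs also called HSPE1 (log2 difference 0.88, SE 0.26, adjusted p = 0.0250).

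In Bio, HSPE1 had 0, 2782 and 8880 CPM (lowest, median and highest) without YM115 (n = 23) and 197, 2873 and 8365 CPM with it (n = 21). The log2 difference there was 0.32 (SE 0.49, adjusted p = 0.843), and the difference between the screens was -0.54 (SE 0.57, adjusted p = 0.665, Bio minus dT). The HSPE1 log2 differences in dT were also positive for imatinib (0.71, SE 0.29, adjusted p = 0.220) and trametinib (0.64, SE 0.30, adjusted p = 0.341), neither past the threshold.

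**Figure D2:**
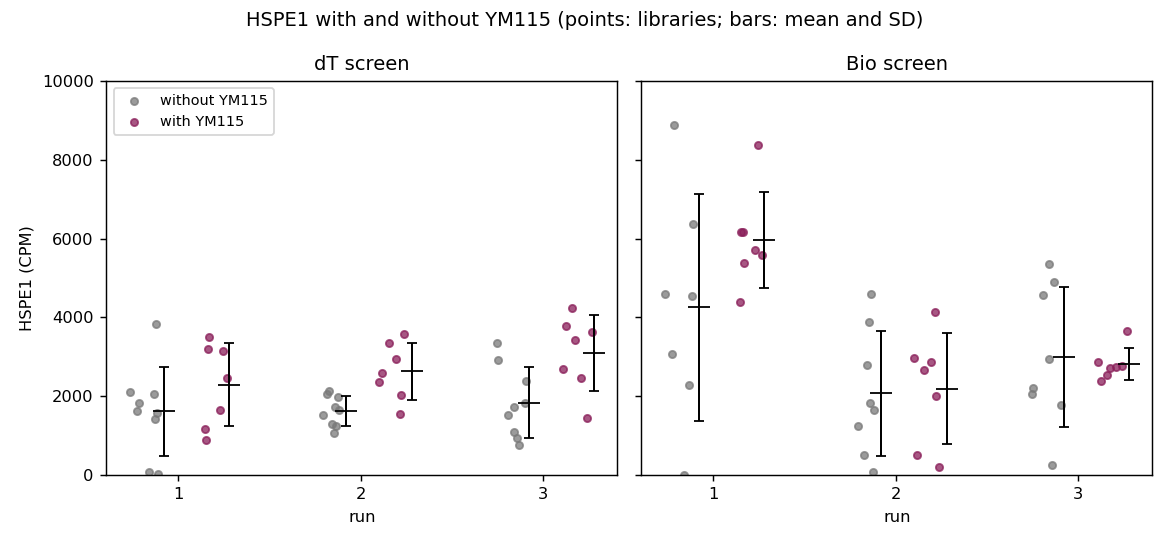
HSPE1 level (CPM) in every library with (purple) and without (grey) YM115, by run, in the dT (left) and Bio (right) screens, with the mean and SD. In dT the mean with YM115 is higher in all 3 runs, while in Bio it is higher in runs 1 and 2 (5962 against 4251 and 2188 against 2068 CPM) and lower in run 3 (2806 against 3001 CPM), with wide overlap throughout.

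No other member passed for a drug. For imatinib 0 of 7 members were called in dT and 0 of 8 in Bio, where 2.88% and 2.34% of all genes were. For trametinib it was 0 of 7 and 0 of 8 (1.37% and 1.94% of all genes), and for YM115 in Bio 0 of 8 (2.74%). Below an unadjusted p of 0.05 lay 1 and 1 members for imatinib in dT and Bio (13.9% and 15% of all genes), 1 and 2 for trametinib (12.6% and 12.4%), and 3 for YM115 in Bio (16%). DESeq2 called 0 in each of these 5 comparisons. The median log2 difference over the members tested was -0.07, -0.27 and -0.14 for imatinib, trametinib and YM115 in dT, beside 0.07, 0.23 and 0.21 over all genes. In Bio it was 0.67, -0.08 and 0.18, beside 0.12, 0.30 and 0.53.

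HSP90AA1 had higher values with YM115 in both screens, short of the threshold. In dT it had 0, 846 and 3630 CPM (lowest, median and highest) without YM115 and 6.82, 1742 and 4192 CPM with it. The log2 difference was 0.89 (SE 0.44, adjusted p = 0.345). In Bio the values were 0, 999 and 6602 CPM without and 670, 2617 and 5647 CPM with YM115, a log2 difference of 1.94 (SE 0.86, adjusted p = 0.239). The run means in dT were 2905 against 2051, 1776 against 1085 and 1443 against 390 CPM. In Bio, run 2 showed no such order (2968 with against 3059 CPM without). HSP90AB1 gave -0.14 (SE 0.29) and 0.04 (SE 0.58) for the same term in dT and Bio. A difference between the forms was not tested. Libraries with YM115 were deeper, with medians of 390691 against 316995 counts in dT and 242985 against 175540 in Bio. HSP90AA1 correlated with log2 total counts at r = 0.196 in dT and r = 0.476 in Bio.

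HSPA1A, the HSP70 that is nearly silent in unstressed cells of many kinds, was seen mostly in libraries with YM115. In dT, 12 of 21 YM115 libraries had counts, 219 in sum, while 4 of the 27 others had counts, 6 in sum. In Bio it had counts in 19 of 21 and 8 of 23 libraries, with 866 and 294 counts. Over all genes counted in at least 10% of libraries, the median difference in the share of libraries was 3.70 percentage points in dT and 5.59 in Bio, while for HSPA1A it was 42.3 and 55.7 points. The share of genes with a difference as large as that of HSPA1A was not computed. This HSPA1A pattern was chosen after its values were seen, and the fit did not call it. In Bio the log2 difference was 2.90 (SE 1.28, adjusted p = 0.239), and 0.98 (adjusted p = 0.759) with log2 total count as a covariate. In dT HSPA1A was tested only without the count minimum (5.03, SE 1.75, adjusted p = 0.0930).

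A few libraries held most HSPA1A counts. In dT, Imatinib_YM115 had 0, 80 and 86 counts in runs 1 to 3, DMSO_YM115 run 3 had 21 and YM115_Imatinib run 1 had 11, and no library without YM115 had more than 2. In Bio, the highest counts were 177 in YM115_Imatinib run 2 and 168 in Trametinib_YM115 run 2, but 2 libraries without YM115 were also high, Trametinib_Imatinib run 2 with 144 and DMSO_Imatinib run 3 with 131. The 6 in-screen DMSO_DMSO libraries had 0 counts, while the separate DMSO controls of dT had 17, 13 and 1 and those of Bio had 1, 0 and 3. With each library thinned to 35000 counts, HSPA1A remained visible in dT in 4 of 21 YM115 libraries and 1 of 27 others, and in Bio in 13 of 21 and 3 of 23. HSPA1B, a near-identical neighbouring copy whose reads the counting could split with HSPA1A, was counted in 13 of 21 and 4 of 27 dT libraries and in 12 of 21 and 7 of 23 Bio libraries.

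**Figure D3:**
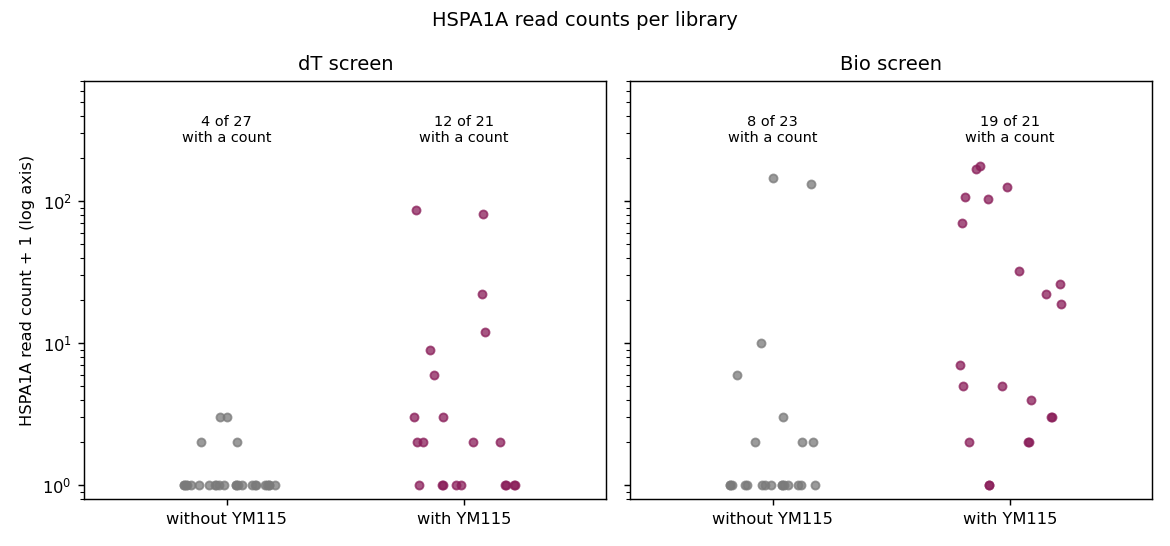
HSPA1A read counts (plus 1, log axis) in every library without and with YM115, in the dT (left) and Bio (right) screens. Counts are at 0 in 23 of 27 dT libraries without YM115, and 19 of 21 Bio libraries with YM115 have a count.

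HSPB1 had positive differences for all 3 drugs in Bio, none past the threshold. For imatinib, trametinib and YM115 the log2 differences were 0.92 (SE 0.45), 1.20 (SE 0.47) and 1.08 (SE 0.49) in Bio (adjusted p = 0.310, 0.199 and 0.249), and -0.07, -0.02 and -0.23 in dT. The 3 Bio DMSO_DMSO libraries were low, at 548, 339 and 672 CPM, against a median of 1673 CPM over the screen. Their mean total count, 114694, was also the lowest of the Bio pairs that passed. HSPB1 correlated with log2 total counts in Bio (r = 0.476). The drug by screen difference was 1.21 (SE 0.58), 1.40 (SE 0.60) and 1.43 (SE 0.60), with adjusted p of 0.206, 0.168 and 0.142. Of 8 members tested, 0 passed for drug by screen with any drug, where 5.84%, 4.59% and 6.59% of all genes did. At an unadjusted p under 0.05 it was 1 for each drug, HSPB1 in every case, beside 21.6%, 19% and 20.6% of all genes. DESeq2 called HSPB1 for YM115 by screen.

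To ask whether any ordered pair stood apart, all pairs of a screen were tested jointly. In dT 0 of 9 members passed, beside 0.303% of all genes, and 3 (DNAJA1, HSPA9 and HSPA1A) had an unadjusted p under 0.05, beside 48.4% of all genes. DESeq2 called HSPA5 there. In Bio 2 of 8 passed, HSPA5 (adjusted p = 0.0203) and HSPA8 (adjusted p = 0.0494), beside 22.9% of all genes, so the share of members was close to the background. HSPA5 missed the threshold without any one run (adjusted p of 0.0638, 1.00 and 0.311 without runs 1, 2 and 3), and HSPA8 also did (0.233, 0.971 and 0.704).

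HSPA5, which holds unfolded proteins in the endoplasmic reticulum, had its highest levels with DMSO listed first. In dT, DMSO_DMSO had 1846, 1245 and 2430 CPM in runs 1 to 3. DMSO_Imatinib had 3463, 1199 and 3230 CPM, whereas Imatinib_DMSO had 55.9, 539 and 6.45 CPM. These ranges were separate, but the same pairs overlapped in Bio, at 12.4 to 5102 CPM and 4.11 to 1521 CPM. This contrast was chosen after its values were seen, and the share of all genes with separate ranges for it was not computed. In dT the ranges of DMSO_YM115 (27.3 to 1076 CPM) and YM115_DMSO (304 to 870.4 CPM) also overlapped. Pooled over 12 libraries, first-listed DMSO gave 1629 CPM and first-listed imatinib gave 499 CPM, trametinib 395 CPM and YM115 421 CPM. Second-listed, the 4 levels were 665, 647, 591 and 524 CPM. Pairs with DMSO listed first were shallower in dT, with mean total counts of 184353 to 217888 against 303741 to 544918 in other pairs. HSPA5 correlated with log2 total counts at r = -0.263 in dT and r = 0.171 in Bio. The part of depth in this contrast was not tested. In Bio, first-listed DMSO gave 1939 CPM and the others 270, 659 and 508 CPM, while second-listed trametinib was lowest at 155 CPM. The HSPA5 counts were 0 in all 3 Bio libraries of YM115_DMSO and in both of DMSO_Trametinib that passed. The joint test of first-listed against second-listed drugs did not pass for HSPA5 (adjusted p = 0.610 in dT and 0.477 in Bio), nor did any of its drug terms (adjusted p of 0.459 to 0.844 in dT and 0.829 to 0.987 in Bio).

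**Figure D4:**
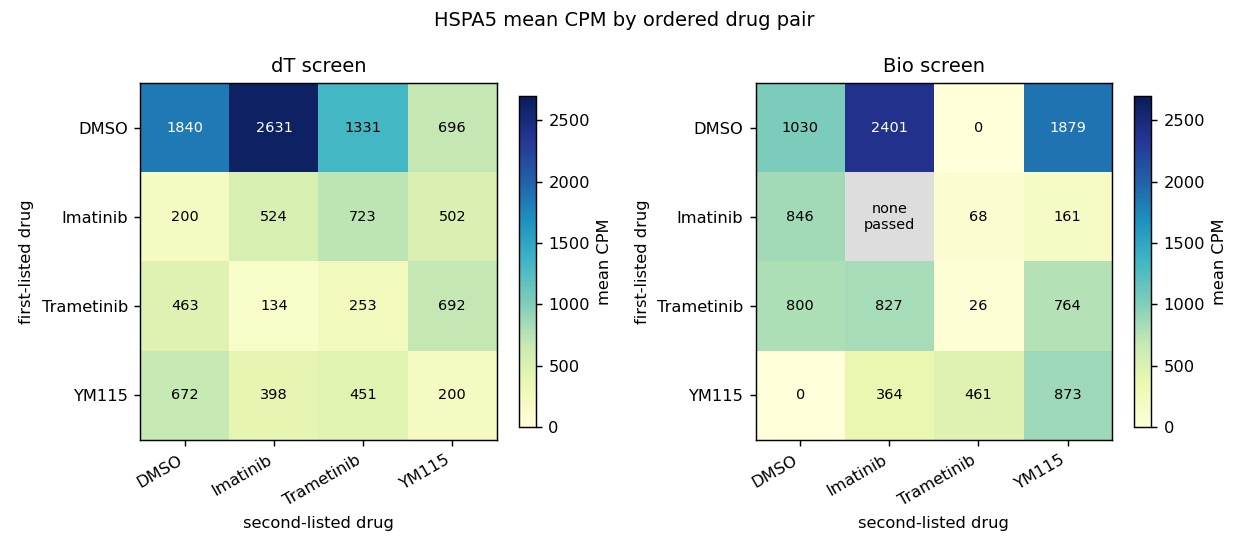
Mean HSPA5 level (CPM, colour and number) for each ordered drug pair, first-listed drug in rows and second-listed drug in columns, in the dT (left) and Bio (right) screens. Each cell holds 3 libraries except Bio DMSO_Trametinib (2) and Bio Imatinib_Imatinib (none passed), and the highest mean of each screen is in the top row, at DMSO_Imatinib.

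For injection position, 1 of 7 members passed in dT and 1 of 8 in Bio, beside 10.7% and 21.1% of all genes. It was HSPA9 in both (adjusted p = 0.0313 and 0.0462). Its counts were few and uneven. In dT, first-listed DMSO gave 48.3 CPM and second-listed DMSO 3.35 CPM, with 5 and 2 of 12 libraries counted. Run 1 of dT held 727 HSPA9 counts in 12 of 16 libraries. Runs 2 and 3 held 44 and 81 counts, in 3 and 5 of 16 libraries. In Bio, first-listed trametinib gave 115 CPM, while second-listed trametinib had 1 count in 11 libraries. The drugs with the widest contrast differed between the 2 screens, and HSPA9 missed the threshold without run 1, 2 or 3 in dT (adjusted p of 0.0572, 0.245 and 0.155). In Bio, its adjusted p was 0.341 without run 1 and 0.0550 without run 3, and it was not tested without run 2, the run that held its 4 highest counts. HSPB1 had an adjusted p of 0.0624 in Bio and HSP90AB1 0.155 in dT.

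Drug combinations did not depart from the sum of their single terms for any member past the threshold. In dT 0 of 9 members were called, beside 9.77% of all genes, and in Bio 0 of 8, beside 14% of all genes. Below an unadjusted p of 0.05 lay 2 in dT (DNAJA1 and HSPA9, adjusted p = 0.0706 and 0.107) and 1 in Bio (HSPA9, adjusted p = 0.0600), beside 32.2% and 35.4% of all genes. DESeq2 called 0 in both screens. DNAJA1 was counted in all 3 dT libraries of Trametinib_DMSO, with 24, 100 and 3 counts, and had 218 counts in Imatinib_DMSO run 1. It had at most 4 counts in any other in-screen dT library.

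The screens were compared on counts summed per run over the 14 ordered pairs whose libraries all passed in both. HSPB1 had 758, 382 and 531 CPM in runs 1 to 3 of dT and 2529, 2320 and 2589 CPM in Bio, so the screens did not overlap and the mean ratio was 4.45. The log2 difference was 2.27 (SE 0.29), which did not pass in edgeR (unadjusted p = 7.05e-05, adjusted p = 0.118). DESeq2 called it (2.58, adjusted p = 1.95e-12), and so did edgeR without the count minimum (2.25, adjusted p = 6.52e-10). With run as a replicate block it was 2.32 (adjusted p = 0.179). HSPA1A was the other member whose run sums did not overlap, with 4.11, 21.4 and 21.9 CPM in dT and 35.3, 172 and 101 CPM in Bio (log2 difference 2.77, SE 1.15, adjusted p = 0.675). Of 6724 genes, 3.18% had Bio run sums that were all above those of dT and 12.4% had them all below. With 3 against 3 run sums, an exact two-sided permutation test could not go below p = 0.10.

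The other members overlapped between the screens. Of 9 members tested, 0 were called, beside 0.0446% of all genes, and 2 had an unadjusted p under 0.05 (HSPB1 and HSPA1A), beside 6.9% of all genes. HSPE1 was 2209, 2269 and 2555 CPM in dT and 5196, 2374 and 3125 CPM in Bio, with a log2 difference of 0.73 (SE 0.32, adjusted p = 0.757). The log2 difference was positive for 8 of the 9, with a median of 0.70 beside -0.03 over all genes. Screen and barcoding scheme cannot be told apart.

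**Figure D5:**
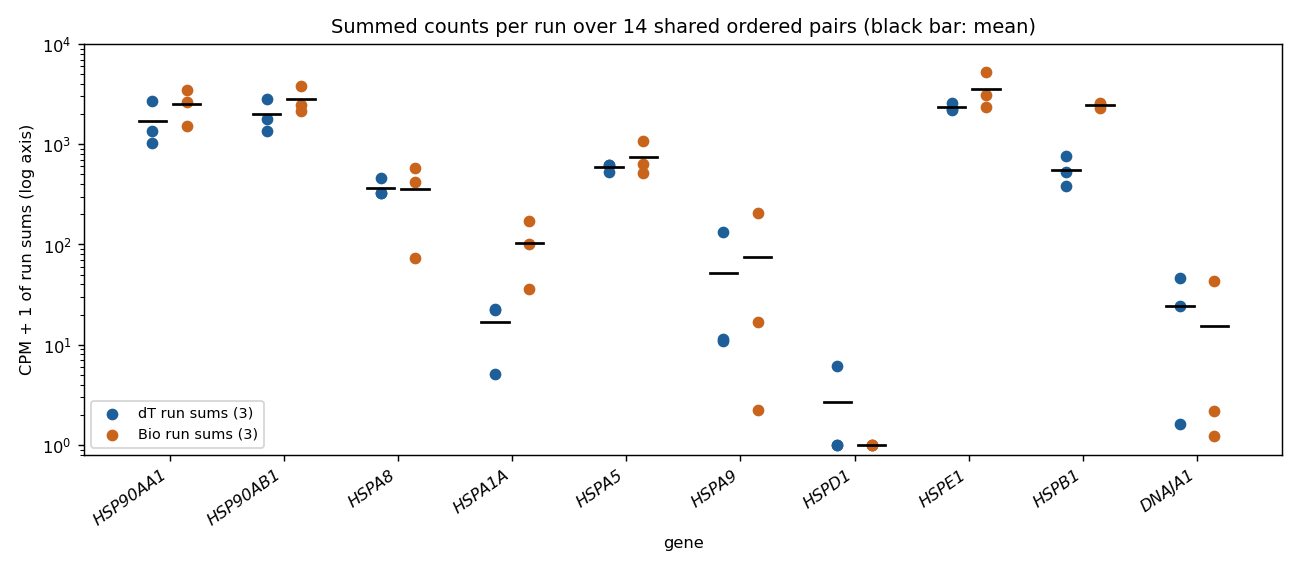
Level of each gene (CPM + 1, log axis) in counts summed per run over the 14 ordered pairs that both screens share, for dT (3 run sums) and Bio (3 run sums), with the mean as a black bar. The HSPB1 run sums lie at 382 to 758 CPM in dT and at 2320 to 2589 CPM in Bio, and most other genes overlap.

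The separate DMSO controls gave a background for solvent-treated cells. HSP90AA1 had 905, 990 and 739 CPM in the dT controls and 1746, 3630 and 807 CPM in the in-screen dT DMSO_DMSO libraries. HSPB1 had 963, 331 and 795 CPM in the controls and 1281, 579 and 192 CPM in-screen. HSPE1 had 905, 77.9 and 1588 CPM in the controls and 72.1, 1984 and 756 CPM in-screen. The ranges overlapped for all 3 genes. HSPA9, HSPA1A, HSPD1 and DNAJA1 had 0 counts in all 3 in-screen dT DMSO_DMSO libraries. Against a limit of 3 counts over that group, pooled HSPA9 was at least 9.44-fold higher in the separate controls, HSPA1A at least 5.85-fold, HSPD1 at least 2.45-fold and DNAJA1 at least 1.51-fold. Over all genes the median log2 difference in dT was 3.39, so higher levels in the controls were not particular to these genes. In Bio, pooled HSPA9 went the other way, with 166 CPM in the controls and 506 CPM in-screen. There HSPA1A and HSPD1 were at least 2.62-fold and 3.28-fold higher in the controls, from 4 and 5 counts.

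In the fits 0 of 9 members passed in dT and 0 of 8 in Bio for this comparison, beside 0.116% and 0.0487% of all genes. At an unadjusted p under 0.05 it was 2 in dT (HSPA9 and HSPA1A, adjusted p = 0.296 each) and 0 in Bio, beside 16.1% and 10% of all genes, and DESeq2 called 0 in both. The separate controls detected 7410 to 10361 genes in dT against 1837 to 5110 in the screen, and their median log2 difference over all genes was 3.39. In Bio, where it was 5.34, HSPE1 had 532, 201 and 221 CPM in the controls and 0, 74.7 and 4890 CPM in-screen. HSPA8 had 8, 5 and 8 counts in the Bio controls, in contrast to 0 counts in 2 of the 3 in-screen DMSO_DMSO libraries and 3075 CPM in the other. The members' median difference was 0.46 in dT and 0.42 in Bio. Mitochondrial genes took 10.2% to 36.9% of the counts of the dT controls and 5.10% to 28.1% of those of the Bio controls, which were exempt from the library filter.

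Other genes of the folding network were looked up on lists of HSP70, HSP90 and J proteins, cochaperones, the TRiC and prefoldin complexes, small heat shock proteins, heat shock regulators and ER and mitochondrial stress genes. For imatinib in dT 2 of 60 were called, both lower, beside 2.88% of all genes. They were CRELD2, an ER stress gene (log2 -5.82, SE 1.49, adjusted p = 0.0215), and HSF1, the main heat shock factor (-3.18, SE 0.89, adjusted p = 0.0371). For YM115 in dT 1 of 60 was called, higher, beside 2.62% of all genes. It was GRPEL1, the nucleotide exchange factor of mitochondrial HSPA9 (5.57, SE 1.1, adjusted p = 0.00111). For trametinib in dT it was 0 of 60, and for the 3 drugs in Bio 0 of 37 each. Whether these shares differed from that of all genes was not tested.

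Among ordered pairs, 0 of 72 network genes passed in dT and 20 of 64 in Bio, beside 0.303% and 22.9% of all genes. Those in Bio were led by the J proteins DNAJC2 (adjusted p = 0.000426) and DNAJB1 (0.000751), a partner of inducible HSP70, then by the cochaperones BAG2 (0.00581) and STIP1 (0.00649) and the J proteins DNAJC7 (0.00777) and DNAJC1 (0.0103). For position 6 of 60 passed in dT, led by PFDN6 (0.0121) and BAG2 (0.0128), and 8 of 40 in Bio, led by STIP1 (0.00845) and BAG1 (0.0115), beside 10.7% and 21.1% of all genes. For additivity it was 5 of 72 in dT, led by DNAJC21 and LONP1 (0.0237 each), and 5 of 53 in Bio, led by DNAJC3 and XBP1 (0.0208 each), beside 9.77% and 14% of all genes. For drug by screen 2, 3 and 4 of 64 passed for imatinib, trametinib and YM115, beside 5.84%, 4.59% and 6.59% of all genes, among them CCT4 (8.85, SE 2.55, adjusted p = 0.0231), SUGT1 (6.35, SE 1.73, adjusted p = 0.0214) and ATF6 (-7.00, SE 1.82, adjusted p = 0.0114).

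Among the genes whose level most resembled the summed member level in dT were GGNBP2 (r = 0.532), PDAP1 (r = 0.512), H1-4 (r = 0.499) and MAGEB2 (r = 0.484), of 2181 candidates over 48 libraries. In Bio, PDAP1 gave r = 0.309 and H1-4 r = 0.182, and GGNBP2 and MAGEB2 were counted in too few libraries. Processed copies of the members took few reads. The 48 pseudogene rows held 2478 counts, 0.897% of the member counts, and the 24 rows of HSPE1 held 768. HSP90AA1 overlaps WDR20 on the opposite strand, which had 139 counts in all libraries.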

How the data were processed

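Gene-level read counts of 102 K562 libraries were analysed. The counts were deposited by the authors as raw values per Ensembl gene. Per the labels' processing notes STAR 2.4.2a and GRCh38 were used, and the annotation release and the strand setting are not given in the sources used here. Symbols were found for 24539 of 24965 genes, and 24646 matched GENCODE release 29. In-screen libraries were kept with at least 1000 detected genes and at most 15% mitochondrial counts, and separate controls were exempt. Levels (CPM) are counts scaled to the library total.

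Counts were tested with edgeR 4.0.16 (quasi-likelihood, TMM, filterByExpr, run as a block within a screen) in R 4.3.3, and p-values were adjusted by Benjamini-Hochberg over all genes tested, with a threshold of 0.05. DESeq2 1.42.0, other filters and scalings, a depth covariate, no block and the omission of each run were alternatives. Scripts were tested on simulated data. The members and gene lists were chosen with earlier results of these data known. The text names every member, the network genes with the smallest adjusted p (at most 6 per comparison) and, of the 5 genes most like the summed members in level, those reported here.

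Labels number the runs 1 to 3 in each screen. Residuals of libraries with the same run number had a mean correlation of 0.0181 in dT and 0.0176 in Bio, against -0.00905 and -0.0088 for other runs. Among 102 pairs of replicate libraries 0 were identical, and chi-square over degrees of freedom was at least 3.33. Reads of HSPA1A and HSPA1B, and of overlapping genes, may be split by the counting.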

Additional observations from a re-analysis of the deposited data

Results flagged for a closer look

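Among the members, only HSPB1 and HSP90AA1 exceeded every Bio DMSO control library in any of the 4 Bio libraries left out of the comparisons. This was judged by the lower bound of a 95% exact Poisson interval that covers counting error only. HSPB1 was at 6195.97 CPM in Bio DMSO_Trametinib run 1, and at 3491.55, 19195.5 and 3131.64 CPM in Bio Imatinib_Imatinib runs 1, 2 and 3, against 1762.63 CPM in the highest control. These levels came from 582, 106, 482 and 56 counts. HSP90AA1 was at 5951.11 CPM (559 counts) in Bio DMSO_Trametinib run 1, against 1566.78 CPM in the highest control, and at 0 counts in the 3 Imatinib_Imatinib libraries. The 4 libraries had 438 to 808 detected genes and 17882 to 93932 counts in all. Apart from 19195.5 CPM, these values lay within the range of the Bio libraries that passed. That range reached 6605 CPM for HSPB1 and 6602 CPM for HSP90AA1. The share of all genes above every control in these libraries was not computed.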

How the results depend on the processing

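Of 1286 member values under an alternative, 1243 kept their side of the threshold, 32 lost the threshold and 11 gained it. Among single-term values with a call under either setting, 0 changed sign. Sign changes between values that were not called were not counted, and the joint tests have no sign. The number of members called for the drug terms in dT was 1, and 0 with DESeq2 size factors, with genes counted in at least 50% of the libraries, with no replicate block, with single-drug conditions only and with log2 total count as a covariate, and 0 to 1 without 1 run. With no low-count filter it was again 1, but another gene, DNAJA1 with YM115 (log2 -5.50, edgeR adjusted p = 0.0471), while HSPE1 was lost. For ordered pairs in dT it was 0, but 1 by DESeq2 and 2 with no replicate block. For position in dT it was 1, and 0 by DESeq2, with the filter on 50% of the libraries, with no replicate block and without any 1 run, and with no low-count filter the 1 called was DNAJA1 in place of HSPA9. In Bio the drug terms gave 0 and the depth covariate 1 (HSPA9 with trametinib). Ordered pairs in Bio gave 2, then 1 with DESeq2 size factors and with no low-count filter, and 0 by DESeq2, with the filter on 50% of the libraries and without any 1 run. With no library filter the 2 called were HSPE1 and HSPA8, and with no replicate block HSPA5 and HSPA9. Position in Bio gave 1, and 0 with DESeq2 size factors, by DESeq2, with no low-count filter, with the filter on 50% of the libraries, with the depth covariate and without any 1 run. Additivity in Bio gave 0, and 1 with no replicate block and with no library filter. Drug by screen gave 0, and 1 by DESeq2. Bio against dT gave 0, and 1 by DESeq2 and with no low-count filter. With run as a replicate block the HSPB1 difference between screens was 2.32 on the log2 scale (adjusted p = 0.179 by edgeR). The cause of these changes was not tested. Thinning to 35000 counts moved 6 of 20 detection shares. At these depths 3 counts in 1 library stand for 3.95 to 23.6 CPM in dT and 3.85 to 36.7 CPM in Bio. Counts over all genes moved more: over the alternatives they ran from 0 to 510 for imatinib, 468 for trametinib and 503 for YM115 in dT (113, 54 and 103 as reported), and from 0 to 218, 182 and 203 in Bio (41, 34 and 48). For ordered pairs they ran from 22 to 2241 in dT (19) and 0 to 3458 in Bio (1119), for position from 20 to 1432 (420) and 8 to 700 (445), for additivity from 0 to 1012 (612) and 0 to 819 (480), for separate controls from 2 to 242 (8) and 0 to 338 (3), for drug by screen from 0 to 975 (275), 0 to 822 (216) and 6 to 971 (310), and for Bio against dT from 0 to 206 (3).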
